A study of Mus musculus with 12 samples.

Results

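A set of 36 mouse genes was followed that code for the enzymes and carriers of fatty acid oxidation or are textbook targets of the nuclear receptor PPARα, with Ppara itself and its coactivator Ppargc1a. The genes were taken by name, and each was read from probe sets annotated to that gene alone. On the array hybridised with macrophage and liver RNA 34 of the 36 had such a probe set, among 19938 genes, and on the aorta array 33 had one, among 12394 genes. Cpt1b and Ucp2 had none on either array, and Cyp4a10 had none on the aorta array.

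All mice were C57BL/6J and lacked Apoe, the apolipoprotein whose loss makes mice prone to atherosclerosis. Control mice were Apoe-/-, and knockout mice were Prkch-/-Apoe-/- and so lacked the kinase PKCη as well. Thioglycolate-elicited peritoneal macrophages, with no stimulation, came from females on regular diet at 18, 17 and 27 weeks of age for replicates 1, 2 and 3 of both genotypes, on 6 arrays. Liver came from males aged 20 weeks, kept on a high fat diet for 12 weeks and re-fed, with 2 arrays per genotype. Aorta came from males of the same age and diet, in the fed state, with 1 array per genotype made from RNA pooled from 4 mice. The labels call the arrays biological replicates, and p-values below rest on the spread between these arrays only. In limma's test each gene's variance was drawn toward the common variance of all genes tested, so a p-value does not rest on that gene's spread alone. The number of arrays limits the precision, and in bulk tissue fewer cells of a type and less RNA per cell cannot be told apart.

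Fatty acids enter mitochondria as acylcarnitines through the carnitine shuttle and are shortened by rounds of dehydrogenation, hydration, oxidation and thiolysis, and the electrons pass through the electron transfer flavoprotein to the respiratory chain. Very long chains are first shortened in peroxisomes, ω-hydroxylation by microsomal Cyp4a enzymes offers a side route, and the liver turns surplus acetyl-CoA into ketone bodies. PPARα, a receptor for fatty acids that pairs with RXR, is the main activator of these genes in hepatocytes during fasting, and feeding and insulin lower its activity.

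PPARα with RXR binds a direct repeat: the letters AGGTCA, any 1 base, and AGGTCA again. The repeat was searched on both strands in the 250 bases before each RefSeq start site (GRCm38.p6), allowing up to 2 mismatches among 12 letters. It was present before 3 of 30 start sites of the 28 genes with an entry (10%), and before 1063 of 32851 start sites of all genes (3.24%). The 3 windows, from Fabp1, Etfa and Acot4, are printed first because they hold the closest matches. The windows of Acot2, Acot1 and Pex11a follow because these genes had among the largest differences in liver; their best stretches differ from the repeat by 3, 4 and 5 letters. Each line reads 5′ to 3′ on the gene's strand, and capitals mark the best stretch, which reads as the reverse complement of the repeat in Fabp1, Etfa and Acot4.
Fabp1, chr6:71199804-71199832, plus strand: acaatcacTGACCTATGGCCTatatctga
Etfa, chr9:55512300-55512328, minus strand: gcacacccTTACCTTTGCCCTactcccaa
Acot4, chr12:84038358-84038386, plus strand: ccgaagcaTGACCTTTGGCCGgtctgtgc
Acot2, chr12:83987795-83987823, plus strand: gctcagcaAGCACACAGCTCAgtctaagg
Acot1, chr12:84009401-84009429, plus strand: ggaggtgtCTGTCTGAGGCCAaccaatgg
Pex11a, chr7:79743283-79743311, minus strand: cctgatggGGTTCATGGGTACctggggac

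Prkch was read first as a check of the genotypes. In liver its log2 values were 6.57 and 6.87 in controls and 5.93 and 5.65 in knockouts, with no overlap. A second, dimmer Prkch probe set, below the filter in liver, read 4.08 and 4.04 against 3.94 and 4.21, and the mean of both sets gave a difference of -0.46 in place of -0.92. In macrophages they were 9.94, 9.86 and 9.31 in the controls against 9.36, 8.79 and 8.87 in the knockouts, so that control replicate 3 lay just under knockout replicate 1. In the aorta pools the signals were 17.2 and 9.94, both below the filter on dim probe sets. The deleted stretch of Prkch is not named in the labels, so a probe outside it could still give signal. Hepatocyte markers were high in liver, at a log2 value of 14.23 in controls and 14.26 in knockouts for Alb, and all 11 measured were below the filter in aorta. The liver arrays shared 48 to 103 identical values per pair among 35557 probe sets, as did pairs within macrophage controls 1 and 2 and knockout 1 (53 to 69). Macrophage control 3 and knockouts 2 and 3 shared 16075 to 18000 identical values per pair, against 0 to 3 between the sets. The macrophage arrays therefore fall into set 1 (controls 1 and 2, knockout 1) and set 2 (control 3, knockouts 2 and 3), a split that the labels do not mention.

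In re-fed liver the fatty acid oxidation genes lay below the controls as a group, and most of that distance came from 1 of the 2 knockout arrays. All 34 measured genes passed the filter; 32 had a lower mean in Prkch-/-Apoe-/- liver (94.1%, against 57.1% of all 15942 genes tested) and 2 a higher one (42.8% of all genes). The median difference was -0.31 in log2 units, against -0.02 over all genes. No member passed limma's test with Benjamini-Hochberg adjustment over all genes (0.00627% of all genes passed, 1 gene). Unadjusted p was under 0.05 for 4 lower members (Pex11a, Acaa1b, Angptl4 and Fgf21) and 0 higher ones, against 2.75% and 1.54% of all genes. The smallest adjusted p of a member was 0.847.

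Both knockout livers lay below both controls in 12 of the 34 genes, and in none did both lie above (18.0% and 11.8% of all genes). Taken singly, knockout replicate 1 was below both controls in 29 genes (85.3%, against 42.1% of all genes), and knockout replicate 2 in 13 (38.2%, against 35.8%). Replicate 1 was below replicate 2 in 28 genes (53.6% of all genes), and more than 0.5 log2 units below it in 12 (35.3%, against 3.41% of all genes). Summed on the linear scale, the 34 levels came to 96028 and 83784 in the controls, 62529 in knockout replicate 1 and 91825 in knockout replicate 2. Without knockout replicate 1 the median difference was -0.11, with 24 of 34 genes lower and 13 below both controls; without knockout replicate 2 it was -0.48, with 31 lower and 29 below. Without control replicate 1 the median was -0.16, and without control replicate 2 the count below the control was 28. The share of all genes was not counted for that fit. The controls differed too, since replicate 1 was above replicate 2 in 30 of the 34 genes (88.2%, against 53.5% of all genes), by a median of 0.21.

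**Figure D1:**
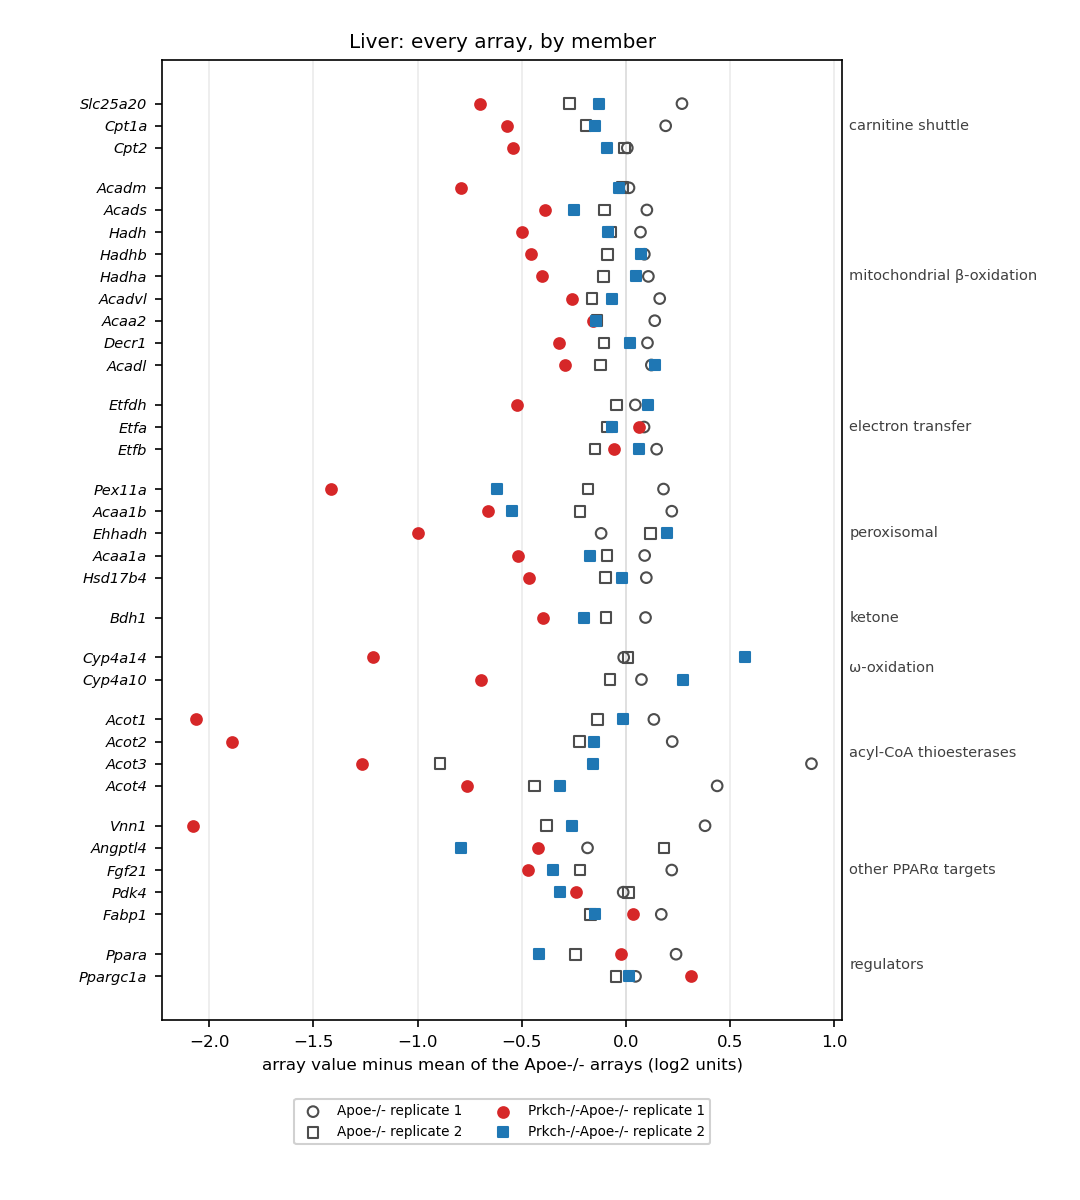
Value of each of the 34 genes on each of the 4 liver arrays, as log2 distance from the mean of the Apoe-/- arrays, by step of the pathway; open symbols are Apoe-/- and filled symbols Prkch-/-Apoe-/-. Red circles (knockout replicate 1) lie left of both open symbols in 29 genes and blue squares (knockout replicate 2) in 13.

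The carnitine shuttle was lower in all 3 measured members, with differences of -0.42 to -0.32. Cpt2, the inner membrane transferase that remakes acyl-CoA, read 9.87 and 9.85 in the controls against 9.32 and 9.77 in the knockouts. Both knockouts lay below both controls, but replicate 2 by less than 0.1. Cpt1a, the rate-controlling outer membrane transferase, read 11.14 and 10.76 against 10.38 and 10.80, and Slc25a20, the acylcarnitine carrier, 11.33 and 10.79 against 10.36 and 10.93. In both of these replicate 2 lay between the controls.

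The 9 enzymes of the mitochondrial spiral were all lower in mean, with a median of -0.18 and a range of -0.41 to -0.08. Knockout replicate 1 was below both controls in all 9, and replicate 2 in 4, which are the next described. Acadm, the medium-chain acyl-CoA dehydrogenase, read 12.28 and 12.25 in controls, 11.48 in knockout replicate 1 and 12.23 in replicate 2. The difference was -0.41 ± 0.23 (limma's moderated SE, n = 2 per group). Each value after ± is such an SE. It is smaller than the gene's own arrays would give where the knockouts disagree widely, and larger where the arrays lie close together. Acads, the short-chain dehydrogenase, read 10.51 and 10.31 against 10.02 and 10.17 (-0.32 ± 0.14). Hadh, the hydroxyacyl-CoA dehydrogenase, read 12.18 and 12.04 against 11.61 and 12.03 (-0.29 ± 0.17). Acaa2, the mitochondrial thiolase, read 12.75 and 12.47 against 12.45 and 12.47 (-0.15 ± 0.14). Of these 4 only Acads had both knockouts clearly under the lower control; in the other 3, replicate 2 was within 0.02 of it. Hadha and Hadhb, the subunits of the trifunctional protein, differed by -0.18 and -0.19, with replicate 2 between the controls in both. Acadvl, Decr1 and Acadl, which open very long chains, handle double bonds and open long chains, differed by -0.16, -0.15 and -0.08; replicate 2 lay between the controls in the first pair and above both in Acadl.

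Electron transfer members were mixed. Etfa and Etfb, the flavoprotein's subunits, read 11.23 and 11.06 against 11.21 and 11.08, and 11.59 and 11.30 against 11.39 and 11.51. Their knockout values lay within the range of the controls. Etfdh, which hands the electrons to ubiquinone, read 12.26 and 12.16 against 11.69 and 12.32, low on replicate 1 only.

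Peroxisomal members had the smallest unadjusted p-values. Pex11a, a membrane protein of peroxisome division, read 10.18 and 9.82 in the controls against 8.58 and 9.38 in the knockouts. Both knockouts were clearly lower, and the mean was 49.4% of control (-1.02 ± 0.25, limma adjusted p = 0.847). Acaa1b, a peroxisomal thiolase, read 11.91 and 11.47 against 11.03 and 11.14, lower on both by similar amounts (-0.61 ± 0.17, adjusted p = 0.989). Its paralogue Acaa1a read 9.29 and 9.11 against 8.68 and 9.03 (-0.34 ± 0.16). Without knockout replicate 1 the differences of Pex11a and Acaa1b were -0.62 and -0.55. Ehhadh, the bifunctional enzyme of the straight-chain pathway, read 12.16 and 12.39 against 11.28 and 12.47: low on replicate 1 and above both controls on replicate 2. Hsd17b4, the other bifunctional enzyme, differed by -0.24.

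Bdh1, the enzyme that makes β-hydroxybutyrate, was the ketone step in the set. It read 10.86 and 10.67 in the controls against 10.37 and 10.57 in the knockouts, with no overlap (-0.30 ± 0.14).

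The widest gaps between the knockout livers were in Acot1, Vnn1, Cyp4a14 and Acot2, with log2 differences of replicate 1 from replicate 2 of -2.05, -1.82, -1.78 and -1.74. The thioesterases, Vnn1 and the Cyp4a genes, with Cpt1a, Slc25a20, Ehhadh, the Etf genes, Hadha, Hadhb, Acadvl, Decr1, Acadl, Hsd17b4 and Fabp1, fell outside the rule for named members and were chosen after their values were seen. Acot1, the cytosolic thioesterase that releases free fatty acids from acyl-CoA, read 9.17 and 8.90 in controls, 6.97 in knockout replicate 1 and 9.02 in replicate 2. Acot2, its mitochondrial paralogue, read 9.41 and 8.96, then 7.29 and 9.03. In both, replicate 2 sat between the controls. Acot3, a peroxisomal member, read 7.70 and 5.92 against 5.54 and 6.65, with the controls themselves far apart, and Acot4 9.79 and 8.91 against 8.59 and 9.04. The 4 genes lie together on chromosome 12, the chromosome of Prkch, with 80 to 83 protein-coding genes between, and their sequences are alike enough that probes may read more than one; the part of either in these values was not tested. Vnn1, the pantetheinase that recycles coenzyme A precursors, read 11.43 and 10.67 against 8.97 and 10.79 (-1.17 ± 0.51), low on replicate 1 alone.

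The Cyp4a genes differed in direction between the knockout arrays. Cyp4a14, an ω-hydroxylase strongly induced by PPARα agonists, read 13.23 and 13.25 in controls, 12.03 in knockout replicate 1 and 13.81 in replicate 2, so that 1 knockout was below and the other above both controls. Cyp4a10 did the same, at 12.82 and 12.67 against 12.05 and 13.02, as did a probe set shared by Cyp4a10, Cyp4a31 and Cyp4a32, at 13.00 and 13.03 against 12.27 and 13.25. With knockout replicate 2 left out, limma called 3 members, all lower: Acot1 (-2.06 ± 0.17, adjusted p = 0.0309), Acot2 (-1.89 ± 0.21, adjusted p = 0.0340) and Cyp4a14 (-1.21 ± 0.15, adjusted p = 0.0411), among 36 of 15942 genes (0.226%). With replicate 1 left out instead, the differences were -0.015, -0.15 and 0.57, with adjusted p of 0.997 to 0.998, and with all arrays the adjusted p of each was 1. In that pair of fits 1 knockout array is assumed to vary as the controls do.

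**Figure D2:**
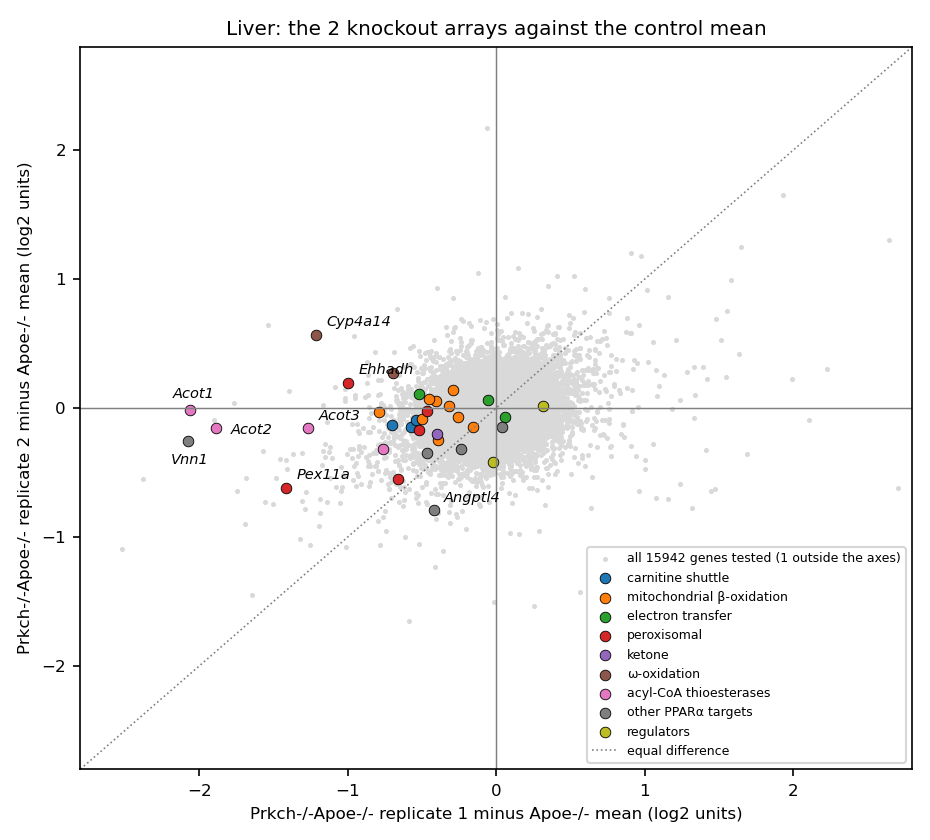
Each gene's distance from the Apoe-/- mean on knockout liver array 1 (horizontal) and array 2 (vertical), in log2 units; grey points are the 15942 genes tested, coloured points the 34 members by step. Members spread left along the horizontal axis, to -2.08 for Vnn1 and -2.06 for Acot1, while most stay near 0 on the vertical axis; Pex11a, Acaa1b and Angptl4 are below -0.4 on both.

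The remaining targets behaved unevenly. Angptl4, the secreted inhibitor of lipoprotein lipase, read 8.86 and 9.22 in the controls against 8.62 and 8.25 in the knockouts, lower on both and lowest on replicate 2 (-0.61 ± 0.18). Fgf21, the hepatokine of fasting, read 6.55 and 6.11 against 5.86 and 5.97 (-0.41 ± 0.17). Pdk4, the kinase that shuts off pyruvate dehydrogenase, read 6.28 and 6.30 against 6.05 and 5.97 (-0.28 ± 0.13). In these 3 both knockouts were under both controls. Fgf21 and Pdk4 were dim, however, near the liver array medians over all probe sets (5.88 to 5.93). Fabp1, the liver fatty acid binding protein, read 13.24 and 12.90 against 13.10 and 12.92, within the controls' range.

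The regulators ordered the arrays differently from the enzymes. Ppara read 10.15 and 9.67 in the controls against 9.89 and 9.49 in the knockouts (-0.22 ± 0.20), and knockout replicate 1, low in most of the enzymes, lay between the controls. Ppargc1a read 6.04 and 5.95 against 6.31 and 6.01, with replicate 1 the highest of the 4. Its dimmer probe set, below the filter, read 4.57 and 4.17 against 5.22 and 4.66, with both knockouts higher.

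Genes of the same pathways outside the set were read in the same way. Among 33 other PPARα targets tested, 29 were lower (87.9%, against 57.1% of all genes) with a median of -0.28 and 17 were below both controls (18.0% of all genes). At an unadjusted p under 0.05, 10 were lower (2.75% of all genes) and 0 higher; none passed adjustment. There replicate 1 was below both controls in 23 and replicate 2 in 22. Txnip, which restrains glucose uptake, differed by -0.69 ± 0.13, Fitm1, a lipid droplet protein, by -1.30 ± 0.26, Slc25a47, a mitochondrial carrier, by -0.53 ± 0.14, and Cidec, a lipid droplet protein, by -0.78 ± 0.21. Other mitochondrial oxidation genes were lower in 18 of 21 (85.7%, median -0.16). Acad12 and Acad10, of the acyl-CoA dehydrogenase family, were below both controls on both knockouts (-0.42 and -0.34). Acsl4 and Acsl5, acyl-CoA synthetases, were higher on both knockouts (0.38 and 0.24). Acsl1, Acsl3 and Mut of this list were not measured. Nearer to the 57.1% of all genes, other peroxisomal genes were lower in 23 of 33 (69.7%, median -0.10), partners of PPARα in 18 of 28 (64.3%, median -0.04) and ketone body genes in 4 of 8 (median 0.01). Among the partners Pparg, the adipogenic receptor, differed by -1.06 ± 0.24 and was below both controls on both arrays.

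Cell type markers were read beside these values. The 11 hepatocyte markers had a median of 0.06 with 1 lower, and their summed linear levels were 147536 to 150213 in controls and 154136 to 156368 in knockouts. The 11 macrophage markers were lower in 10, with sums of 7387 and 10043 against 5799 and 6690. In 7 of the 11 both knockouts were below both controls (18.0% of all genes). At an unadjusted p under 0.05, 5 were lower (2.75% of all genes) and 0 higher. The 5 adipocyte markers tested were all lower (median -0.26), 2 of them at an unadjusted p under 0.05. Endothelial markers were lower in 7 of 7 (median -0.09), with replicate 1 below both controls in 6 and replicate 2 in 2, and fibroblast markers in 6 of 7 (median -0.32), with 2 lower at an unadjusted p under 0.05. Replicate 1 was below both controls in all 7 fibroblast markers and replicate 2 in 3, with medians of -0.44 and -0.03 from the control mean. The 6 Kupffer cell markers were all lower in mean, by a median of -0.51; against the control mean, 6 were lower on replicate 2 (median -0.79) and 3 on replicate 1 (median 0.07). Cd5l, a scavenger receptor family protein of these cells, was below the control mean on both replicate 1 (-0.62) and replicate 2 (-0.61). Their part in the members' values was not tested.

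In macrophages the set was nearer to the background. Of 34 measured genes 27 passed the filter; Acaa1b, Acot3, Acot4, Cyp4a10, Cyp4a14, Fabp1 and Vnn1 were too dim. In the 27, 22 were lower in Prkch-/-Apoe-/- cells and 5 higher (against 63.5% and 36.5% of all 15039 genes), with a median of -0.10 against -0.04. Set 1 holds 2 controls and 1 knockout and set 2 the reverse, so these differences mix array set with genotype. Array medians over all probe sets were 6.72 to 6.77 in set 1 and 6.57 to 6.62 in set 2. With a block for the array sets the median was -0.076 with 21 lower, and Prkch differed by -0.51 in place of -0.70. None passed limma's adjusted test, as for all genes (0.0%), and 2 were lower at an unadjusted p under 0.05 (0.578% of all genes) with 0 higher (0.12%); these were Acaa2 and Etfb. All 3 knockouts lay under all 3 controls in 4 genes (1.6% of all genes), and above in 0 (0.652%). A gene with the same value on all 3 arrays of set 2 cannot count here. This held for 6192 of all 15039 genes and for 6 of the 27, so the shares are not an even comparison. Centring the arrays on their medians, or quantile normalization, left 1 gene with no overlap and 21 lower. Without knockout replicate 1 there were 10 such genes and the median was -0.15, and without control replicate 1 there were 7. Leaving out an array makes non-overlap easier for every gene. The shares of all genes were not counted for these fits, so the rise is not a result about the members.

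Acaa2 read 9.59, 9.89 and 9.88 in the controls against 9.54, 9.37 and 9.53 in the knockouts, with no overlap (-0.31 ± 0.11, moderated SE, n = 3 per group). Within set 1 the difference was -0.20 and within set 2 it was -0.43. Etfb read 9.70, 9.88 and 9.62 against 9.49, 9.16 and 9.52 (-0.34 ± 0.13), also without overlap; it differed by -0.30 and -0.28 within the sets. Angptl4 read 8.03, 8.19 and 9.03 against 7.87, 7.21 and 8.02 (-0.72 ± 0.32); the differences within the sets were -0.24 and -1.42, the larger through a high control 3 and a low knockout 2. Hadh read 9.95, 10.002 and 9.96 against 9.85, 9.92 and 9.94, with no overlap but a difference of only -0.07 ± 0.07.

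Fasting signals and regulators were near the filter in these cells. Fgf21 read 5.80, 5.80 and 5.93 in the controls against 6.03, 5.93 and 5.93 in the knockouts, the 3 arrays of set 2 being identical. Ppara read 6.18, 6.09 and 5.80 against 6.18, 5.80 and 5.80, a difference of -0.10 overall but of 0.04 within set 1 and 0 within set 2. Ppargc1a read 6.31, 6.45 and 6.39 against 6.47, 5.77 and 6.44, low only on knockout 2. Pdk4 read 5.84, 5.602 and 6.23 against 5.78, 5.64 and 5.52, with differences of 0.06 and -0.66 within the sets. Bdh1 read 6.09, 6.21 and 6.04 against 6.27, 6.04 and 6.04.

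By step, the mitochondrial enzymes were lower in 8 of 9 (median -0.11), the carnitine shuttle in 3 of 3 (median -0.08) and the peroxisomal genes in 4 of 4 (median -0.07). Acot2 differed by -0.30, and by -0.07 and -0.24 within the sets, and Acot1 by -0.11, with 0.49 in set 1 and -0.54 in set 2; both were taken up here because of their liver values. Over the 27 genes the median difference was -0.017 within set 1 and -0.15 within set 2, against 0.028 and 0 over all genes. Of the 27, 12 were lower in both sets (against 14.5% of all genes). In set 2, 11 of the 27 had the same value on at least 2 arrays (against 66.1% of all genes), and 6 on all 3 (6192 of all 15039 genes). A gene tied on all 3 has no difference within set 2, so it cannot be lower in both sets. Such ties were commoner over all genes than in the members, so the 14.5% is not an even comparison. Knockout replicate 2 was the lowest, with a median of -0.23 against -0.04 and -0.06 for replicates 1 and 3, and without it the median was -0.04, with 18 lower. Over all genes the medians were 0.07, -0.09 and -0.08 for replicates 1, 2 and 3, so part of this contrast was shared by all genes. Set against all genes, the members were low on replicate 1 as well as on replicate 2. Knockout replicate 2 also stood apart in B cell markers, by a median of 1.59 above the controls, and in fibroblast markers, by -1.69. Macrophage marker sums were 58787 to 68603 in controls and 58402 to 77480 in knockouts. The part of these cells in the members' values was not tested.

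**Figure D3:**
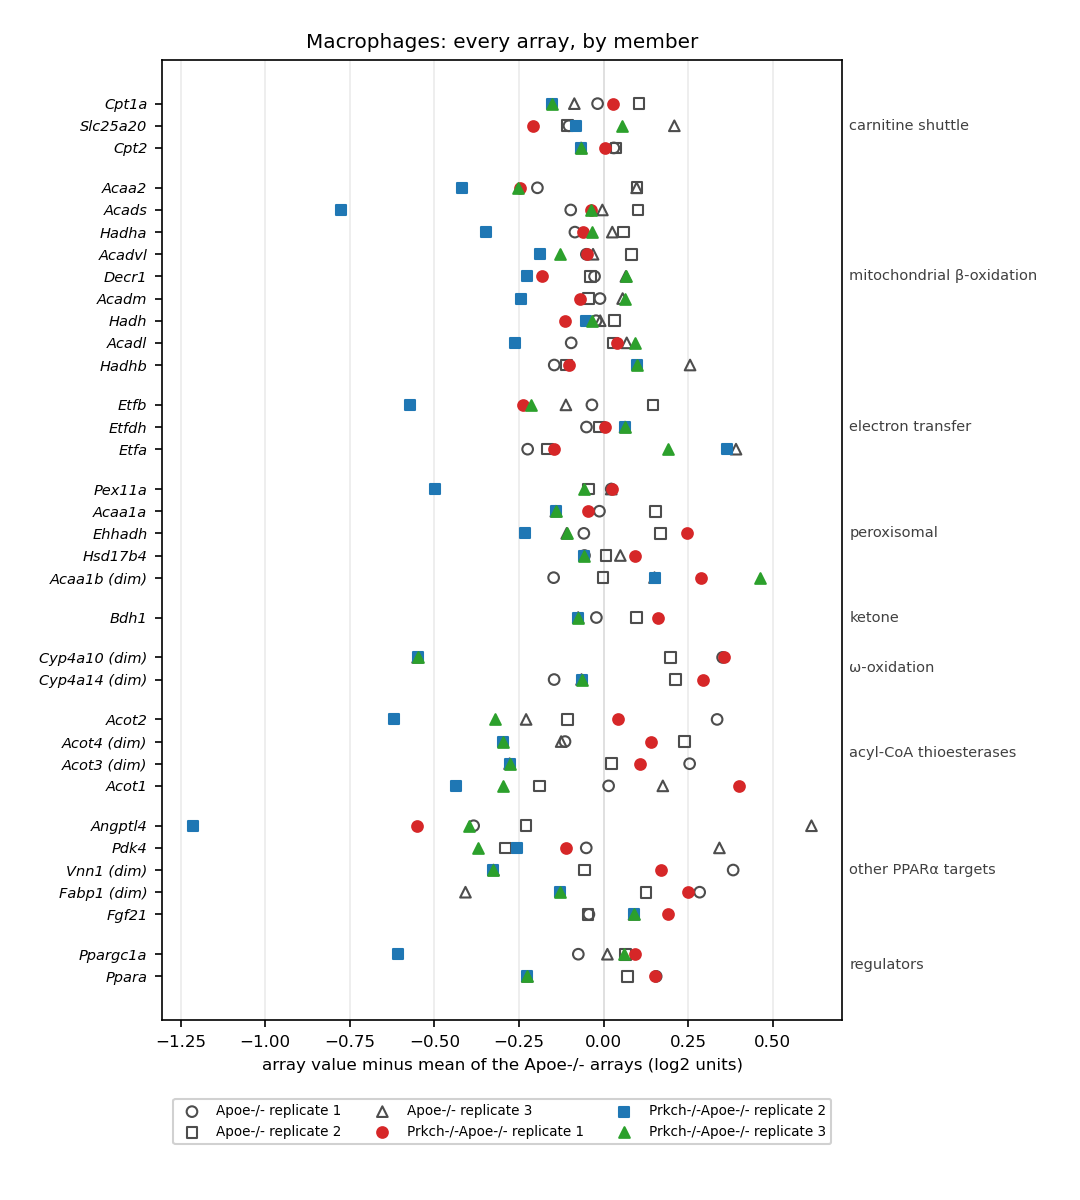
Value of each of the 34 measured genes on each of the 6 macrophage arrays, as log2 distance from the mean of the Apoe-/- arrays, by step; genes marked dim did not pass the filter. Knockout replicate 2 (blue squares) is lowest in many genes, and symbols of set 2 coincide where the deposited values are identical.

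The genotype difference was compared between macrophages and liver in 1 fit, although sex, diet and age differ as well. No member's difference passed the adjusted test (0.0% of 16363 genes), and 3 had an unadjusted p under 0.05 (2.11% of all genes). They were Acaa1b, at 0.90 ± 0.22 higher in the macrophage difference, Pex11a, at 0.84 ± 0.33, and Fgf21, at 0.53 ± 0.19. Acaa1b was below the macrophage filter.

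The aorta pools, 1 array per genotype, allow no test. Of 33 measured genes 28 passed the filter; Acot3, Acot4, Cyp4a14, Fabp1 and Fgf21 did not. In the knockout pool 19 of the 28 were lower (against 51.5% of 7098 genes) and 9 higher, with a median of -0.13 on the log2(signal + 16) scale against -0.01. Quantile normalization of the pair made this 24 lower and a median of -0.21. By 1.5-fold or more 4 were lower (2.35% of all genes) and 1 higher (3.1%).

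The farthest lower were a regulator and 2 thioesterases, Ppara following. Ppargc1a had a control signal of 228 and a knockout signal of 91.8 by its brightest probe set (-1.18). Its other 4 sets ranged from 215 against 104 to 73.1 against 72.7, so that the probe sets disagree on the size. Ppara had 287 against 172 (-0.69). Acot1 had 264 against 129 (-0.95), Acot2 132 against 63.8 (-0.89), and a probe set shared by both 273 against 116.

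Cpt1a was the gene higher by over 1.5-fold, at 69.4 against 161 (1.05), but its other sets read 40.5 against 68.7 and 108 against 98.3, which disagree in direction. Among peroxisomal genes Ehhadh had 877 against 613 (-0.50), Acaa1b 764 against 544 (-0.48) and Hsd17b4 1047 against 875 (-0.25), while Acaa1a went the other way at 67.0 against 104 (0.53), by both of its probe sets. A pair of sets shared by Acaa1a and Acaa1b had 539 against 498 and 746 against 622. By the brightest probe sets the mitochondrial spiral was split, with 5 lower and 4 higher and a median of -0.03. Some other sets disagreed. For Acaa2 another set read 1304 against 762 (-0.76, brightest -0.23), and for Decr1 445 against 249 (-0.80, brightest -0.13). Another Hadhb set was higher (0.26, brightest -0.03). The remaining sets past the filter, of Acaa2 and Hadh, differed by -0.21, 0.07 and 0.008. Hadha had 952 against 801 (-0.25), Cpt2 956 against 703 (-0.43) and Etfdh 1437 against 1122 (-0.35). Bdh1 had 63.95 against 57.26 and Pdk4 2498 against 2443.

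Outside the set, against 51.5% of all genes, 18 of 22 other PPARα targets past the filter (median -0.15), 15 of 18 other mitochondrial genes (median -0.21), 19 of 27 other peroxisomal genes (median -0.12) and 12 of 17 partners of PPARα (median -0.05) were lower in the knockout pool. Ketone body genes were lower in 2 of 5 and higher in 3 (median 0.08). Ppargc1b, the sister coactivator, had 492 against 239, and Acad11, an acyl-CoA dehydrogenase, 866 against 492. Hao2, a peroxisomal hydroxyacid oxidase, had 2.24 against 113 and was the widest of its list.

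The pools held tissue besides the vessel wall. Ucp1 of brown fat had 2598 in controls and 2754 in knockouts, Cidea 2532 and 2433, and Adipoq of fat cells 2354 and 2668. The 7 brown fat markers past the filter, Ppargc1a among them, summed to 11744 and 11521. Skeletal muscle markers were lower in all 10, with sums of 14860 and 9232 and Myh2, a fast myosin, at 1324 and 465. Smooth muscle markers were higher in 5 of 8 (median 0.19). Heart muscle markers were higher in 5 of 7 and lower in 2 (median 0.06), with sums of 3644 and 4123. B cell markers were higher in all 3 past the filter, with Ms4a1 at 49.9 and 453. Muscle and brown fat both express the oxidation genes. The part of any of these tissues or cells in the members' differences was not tested.

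**Figure D4:**
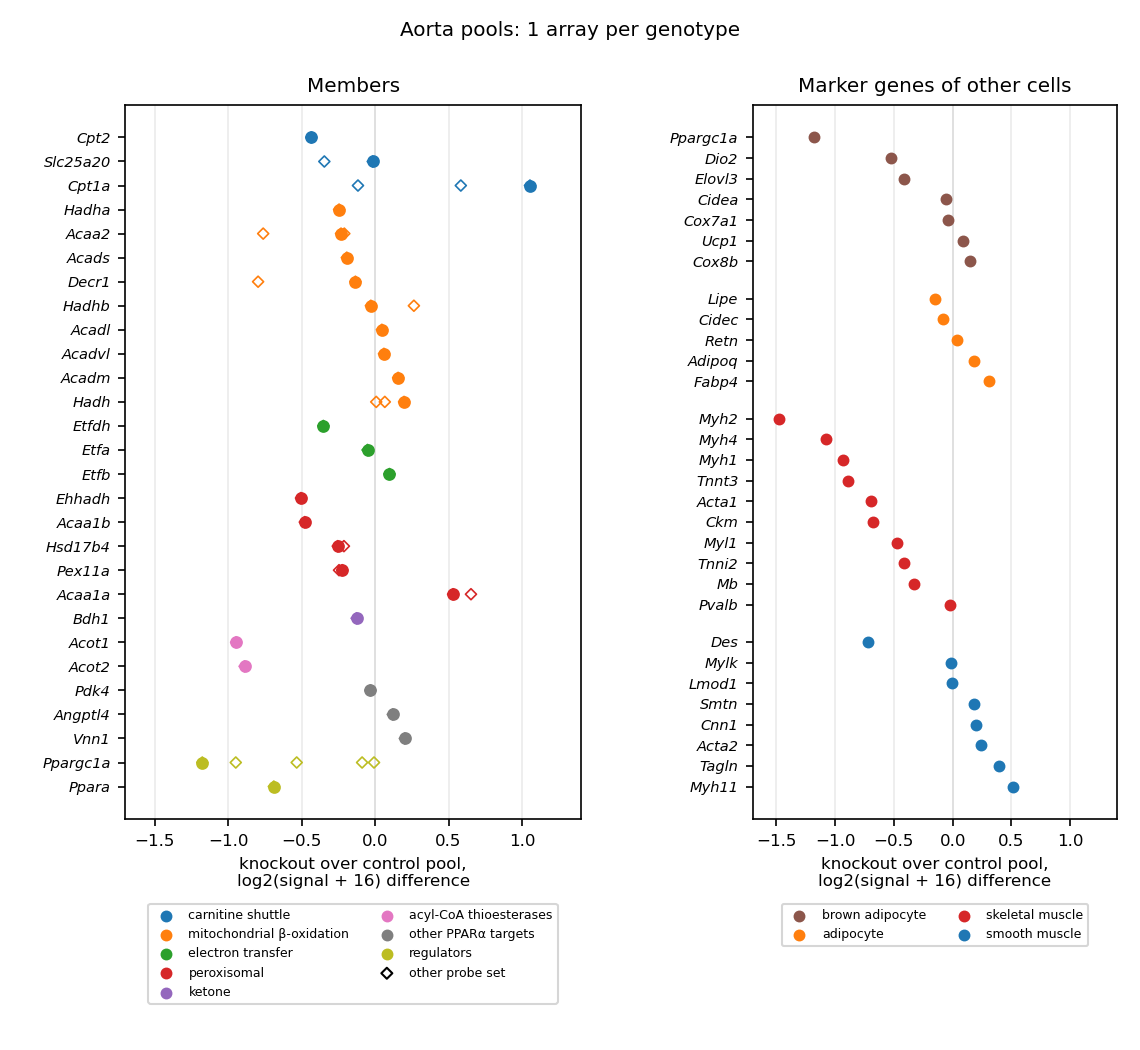
Log2(signal + 16) difference of the knockout pool from the control pool for the 28 members past the filter (left; diamonds are other probe sets of the gene) and for markers of other cells (right). Ppargc1a, Acot1, Acot2 and Ppara lie farthest left among the members, and all 10 skeletal muscle markers lie left of 0.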

How the data were processed

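RNA from macrophages and liver was hybridised to Affymetrix Mouse Gene 1.0 ST arrays and RNA from aorta to Mouse Genome 430A 2.0 arrays. The submitters' processing notes name Affymetrix Expression Console, its algorithm and version being not given in the sources used here. Macrophage and liver values were deposited by the authors as log2 values, and aorta values as linear intensity values, scaled to a trimmed mean of 100.04 on both arrays (2% of values left out at each end), as seen from the values. Probe sets were named through the platform annotation: 21789 of 35557 had 1 symbol on the first array and 20393 of 22690 on the second. The brightest probe set stood for a gene. Genes with a mean under the 30th percentile of all probe sets (5.74 in macrophages, 4.87 in liver) were left out. Each tissue was fitted alone with limma 3.58.1 in R 4.3.3 (lmFit, eBayes, no covariates; Benjamini-Hochberg over all genes, threshold 0.05), after a test on simulated data; the comparison of tissues used the 10 arrays together. Aorta values were compared as log2(signal + 16), where the brighter array reached 32.6, the median.

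The members and gene lists were chosen with earlier results of these data known, so counts and medians over them are descriptions. Per-array values were given for members past the adjusted test, for up to 12 with the smallest unadjusted p and no overlap, and always for Fgf21, Ppara, Ppargc1a, Pdk4 and Bdh1; in aorta for the 12 largest differences. From each list at most the 4 genes with the smallest p or, in aorta, the largest difference were named. Alternatives were other normalizations, filters, probe set rules, priors, pseudocounts, blocks for replicate number and for the sets of tied arrays, all 10 arrays in 1 fit, and each replicate left out. Same-numbered macrophage arrays share an age and deviated together with correlations of 0.40, 0.03 and 0.50. Other-numbered ones had -0.46 to 0.19. Arrays of numbers 1 and 3 also share a set of tied arrays, and those of number 2 do not. In liver the values were 0.11 and -0.11, equal in size by construction with 2 arrays per genotype, and cannot show pairing. The main fits did not use the numbers as pairs, and the block for replicate number was an alternative. Promoter windows came from RefSeq (GRCm38.p6), without entries for Decr1, Vnn1, Acaa2, Cyp4a10, Hsd17b4, Angptl4, Cpt1b and Cyp4a14.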

Additional observations from a re-analysis of the deposited data

How the results depend on the processing

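No liver or macrophage member passed the adjusted test under any alternative but the fit without knockout liver replicate 2 (0 to 3 called over the fits leaving out 1 array), and no interaction did under any of 17. With the replicate block, 0 members were called in either tissue, the medians stayed at -0.31 in liver and -0.10 in macrophages, and 32 and 22 members were lower; over all genes the block called 23 in liver in place of 1 (11 higher, 12 lower). The number of liver members below both controls ranged from 12 to 29 with 1 array left out. It was 9 after median centring and 11 after quantile normalization. In macrophages it ranged from 4 to 10, and was 1 after quantile normalization and 1 after median centring. Leaving out an array makes such a count easier to reach for every gene. The macrophage median was -0.0169 within set 1. The aorta median was -0.21 after quantile normalization. Of the named members, 13 of 14 in liver kept their direction in every alternative, Ppara excepted (0.019 without control replicate 1), as did 6 of 9 in macrophages, Bdh1, Ppara and Ppargc1a excepted, and 12 of 12 in aorta. The cause was not tested. Members near background, such as Fgf21, Ppara and Bdh1 in macrophages, are limited by signal, and aorta by its single array per genotype.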
